A study of Mus musculus with 54 samples.

Results

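The genes described here are 7 members of the tumor necrosis factor (TNF) family and its receptors: Tnf, Tnfsf9, Tnfrsf1a, Tnfrsf1b, Tnfrsf9, Traf1 and Tnfaip2. They were taken by gene symbol from the 33280 genes of the count tables, and all 7 had a row in each table. Bulk RNA-seq had been performed on microglia (MG) and on subdural CNS-associated macrophages (sdCAMs), which live in the leptomeninges and perivascular spaces. Both were sorted from mouse brains whose choroid plexuses had been removed. The 54 libraries fell into 18 groups of 3, from 24 mice whose cell types were sorted from the same animal. Mice received lipopolysaccharide (LPS, a bacterial endotoxin that activates macrophages) or PBS 12 h before the cells were taken, and the labels place this 8 weeks past the last dose of treatment.

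Wild-type (WT) mice and mice labelled Ccr2-/- formed the same 3 conditions, namely untreated with PBS, vehicle (CTL) with LPS, and BLZ945 with LPS. Ccr2 encodes a chemokine receptor of monocytes, and BLZ945 blocks the CSF1 receptor on which these macrophages depend, so that they are lost and later return. Reporter mice carried Ccr2CreERT2 and R26tdT on both alleles, all received BLZ945 and then tamoxifen early in repopulation, and were given LPS or PBS. Recombination by tamoxifen turns on tdTomato (tdT) where the Ccr2 gene is active, which makes tdT+ sdCAMs the progeny of cells active for Ccr2 in that period, whereas tdT- sdCAMs may also hold cells that escaped recombination. Reporter mice had no group without BLZ945, and their MG, tdT+ sdCAMs and tdT- sdCAMs formed 6 of the 18 groups. All reporter libraries carry a different batch label from the WT and Ccr2-/- libraries. Batch, genotype and tamoxifen therefore cannot be told apart between reporter mice and the others. The LPS comparison of WT and Ccr2-/- mice set CTL with LPS against untreated mice, so vehicle and LPS cannot be told apart in it. The labels give no age for the mice, and the study's methods give it only for the first gavage.

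TNF is made as a membrane-bound trimer that is cut from the cell surface and signals through a pair of receptors. Tnfrsf1a encodes TNFR1, which carries a death domain and is found on most cells, and Tnfrsf1b encodes TNFR2, which is mostly found on immune and endothelial cells and binds TRAF adaptors. Tnfrsf9 encodes CD137, a costimulatory receptor best known from activated T cells, and Tnfsf9 encodes its ligand. Traf1 encodes an adaptor that binds TNFR2 and CD137 and is itself a target of the transcription factor NF-kappaB, while Tnfaip2 was named for its induction by TNF in endothelial cells and takes part in the formation of membrane nanotubes. Microglia and border macrophages are both sources and targets of TNF during endotoxin challenge.

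Promoter sequences of the 3 genes whose LPS changes are described at most length are shown so that the letters upstream of the starts of an LPS-responsive ligand, receptor and adaptor can be compared. Each is the 250 bases before an annotated transcription start, read 5′ to 3′ on the strand of the gene, from RefSeq on GRCm38.p6. Capitals mark a TATAAA or a match to the NF-kappaB consensus, both searched on both strands.

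Tnf, chr17:35202008-35202257, minus strand: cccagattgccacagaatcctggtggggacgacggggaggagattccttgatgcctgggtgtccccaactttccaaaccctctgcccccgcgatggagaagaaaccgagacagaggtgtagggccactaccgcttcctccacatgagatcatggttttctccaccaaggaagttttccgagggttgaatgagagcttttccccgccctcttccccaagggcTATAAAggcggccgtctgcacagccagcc
Tnfrsf9, second annotated start, chr4:150927749-150927998, plus strand: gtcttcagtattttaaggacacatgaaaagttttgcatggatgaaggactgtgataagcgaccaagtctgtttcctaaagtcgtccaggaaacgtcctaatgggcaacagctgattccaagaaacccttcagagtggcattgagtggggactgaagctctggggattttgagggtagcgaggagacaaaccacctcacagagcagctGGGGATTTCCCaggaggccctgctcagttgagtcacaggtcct
Traf1, chr2:34961773-34962022, minus strand: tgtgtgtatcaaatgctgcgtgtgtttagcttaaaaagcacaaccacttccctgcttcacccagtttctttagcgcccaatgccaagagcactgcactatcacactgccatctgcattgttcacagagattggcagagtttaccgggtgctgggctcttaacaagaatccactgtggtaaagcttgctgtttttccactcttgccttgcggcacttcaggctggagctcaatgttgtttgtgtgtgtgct

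In Tnf, the only capital letters were a TATAAA whose first base lay 29 bases before the start. At the second start of Tnfrsf9, the capitals hold 2 overlapping matches to the NF-kappaB consensus in a run whose first base lay 43 bases before the start, and the window of Traf1 held neither motif. The first start of Tnfrsf9 and the windows of Tnfrsf1a, Tnfrsf1b and Tnfaip2, whose letters are not shown, also held 0 matches to either motif. Among all 32851 promoters of the same length in the table, 3.9% held an NF-kappaB consensus match and 12.4% a TATAAA. Promoters were found for 6 of the 7 genes, and Tnfsf9 was not among them. A match is a description of the letters in the window and not a measured binding site.

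The spans of the genes in the GENCODE annotation of GRCm38 were chr17:35199381-35202007 for Tnf, chr17:57105325-57107757 for Tnfsf9, chr6:125349362-125362484 for Tnfrsf1a, chr4:145213463-145246870 for Tnfrsf1b, chr4:150914562-150946102 for Tnfrsf9, chr2:34941750-34961772 for Traf1 and chr12:111442469-111455018 for Tnfaip2. Counts are of reads in exons. Exons of Tnfsf9 overlapped those of Gm11110 over 192 bases on the other strand, and exons of Tnfaip2 overlapped those of Gm40578 over 314 bases. Whether reads were counted by strand is not given in the sources used here, so reads in these bases cannot be told apart.

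Total counts were 7497764 to 11330781 in the libraries of MG and of Ccr2-/- sdCAMs, but 1705930 to 7699790 in WT sdCAMs and 2060240 to 9850283 in reporter sdCAMs. Levels are CPM scaled by TMM (TMM CPM, reads of a gene per 1e+06 reads), an adjustment for libraries in which a few genes take many of the reads, and are given per library or as mean ± SD over 3 libraries. Summed levels of 5 microglial markers (P2ry12, Tmem119, Sall1, Siglech and Sparc) were 3538 to 26268 TMM CPM in MG, and those of 6 sdCAM markers (Mrc1, Pf4, Lyve1, Cd163, Ms4a7 and Clec12a) were at most 24.3. sdCAM markers reached 529 to 22002 TMM CPM in sdCAMs. Ccr2 itself was at 17.05 to 51.01 TMM CPM in untreated WT sdCAMs and at 2.33 to 5.204 in untreated Ccr2-/- sdCAMs. Libraries came from whole sorted populations, so that fewer cells of a kind and less RNA per cell cannot be told apart.

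Labels conflicted in some places. The titles of the 12 Ccr2-/- libraries with LPS name the other cell type than their characteristics and library names, which were followed here. Summed microglial markers were 6684 to 8649 TMM CPM in the MG so defined and 464 to 967 in the sdCAMs. The untreated Ccr2-/- libraries named 3m held 1392 (sdCAMs) and 2728 (MG) counts of Xist, unlike the other libraries with an m in their name, a letter that the labels do not explain.

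3 reporter sdCAM libraries stood apart after LPS. In the tdT+ library of mouse 5, microglial markers summed to 3969 TMM CPM and sdCAM markers to 529, against 421 and 318 and against 3181 and 3832 in the other tdT+ libraries. For the tdT- library of mouse 1 and the tdT+ library of mouse 7, the library index carried by the count column contradicted the sample labels, each bearing the index of the other. Their transcripts of sex chromosomes also differed from those of the other libraries of the same mice. Xist was at 508 TMM CPM in the tdT- library of mouse 1, against 0 in its MG and 0.409 in its tdT+ library. Exchanging these 2 columns removed the mismatch. Columns were nevertheless used as named, and results that change when these 2 are exchanged are given both ways.

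The receptors of TNF were the most abundant of the 7 transcripts at rest. Per kilobase of exon, Tnfrsf1b was at 142 ± 8.38 and Tnfrsf1a at 77.3 ± 6.26 TMM CPM in untreated WT MG, whereas Tnf was at 1.78 ± 0.406, Tnfsf9 at 1.43 ± 0.415, Tnfaip2 at 4.97 ± 1.32, Traf1 at 0.0520 ± 0.0150 and Tnfrsf9 at 0.0249 ± 0.0432 on the same per-length scale (mean ± SD, n = 3). In CTL with LPS, Tnf reached 57.8 ± 34.1 TMM CPM per kilobase in WT MG. It remained below Tnfrsf1b at 125 ± 17.6. In Ccr2-/- sdCAMs after CTL with LPS, Tnfrsf9 at 162 ± 38.9 TMM CPM per kilobase stood beside Tnfrsf1a at 158 ± 3.16 and Tnfrsf1b at 237 ± 28.0.

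**Figure D1:**
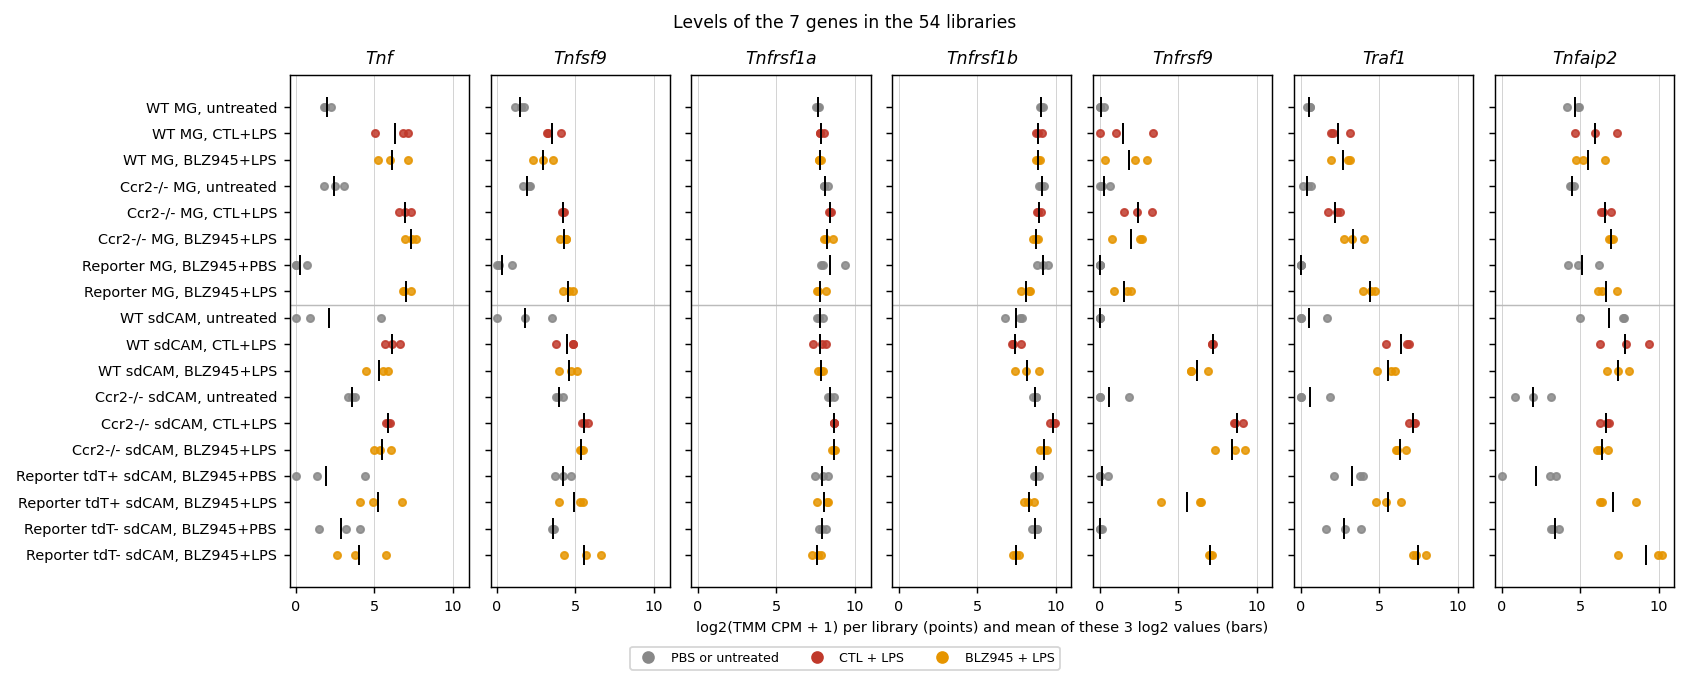
TMM CPM of the 7 genes in each of the 54 libraries, on a log2(value + 1) axis, with 1 panel per gene and 1 line per group. Points are libraries and bars are means of their 3 log2 values, and MG groups stand above the grey line. Tnfrsf1a and Tnfrsf1b lie at 109.8 TMM CPM or higher in every library, whereas Tnfrsf9 is between 0 and 2.60 in every library without LPS and between 13.7 and 621 in every sdCAM library with LPS.

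Changes with LPS were tested with edgeR, and a gene was called where the adjusted p over all genes tested was under 0.05 and the log2 fold change over 1 in size. In WT MG, 5 of the 7 genes were called higher, against 9.08% of all genes tested. In WT sdCAMs, 2 of the 7 were called higher against 3.7% of all genes. Ccr2-/- MG had 5 called higher against 10.5%, and Ccr2-/- sdCAMs had 6 against 10.9%. Repopulated cells of reporter mice had 2 called higher in MG against 0.662%, 3 in tdT+ sdCAMs against 7.54% and 4 in tdT- sdCAMs against 14.5%. The only gene called lower in any of these 7 comparisons was Tnfrsf1b in tdT- sdCAMs, where 12% of all genes were called lower. The share of all genes called lower in the other sets was 7.65% in WT MG, 2.62% in WT sdCAMs, 8.89% in Ccr2-/- MG, 10.6% in Ccr2-/- sdCAMs, 0.423% in reporter MG and 5.82% in tdT+ sdCAMs. The median log2 fold change of the 7 genes was 2.55 in WT MG, 2.46 in WT sdCAMs, 2.61 in Ccr2-/- MG and 2.39 in Ccr2-/- sdCAMs, beside medians over all genes tested of 0.02, -0.08, 0.00 and -0.05. The 7 genes were chosen with earlier results of these data known, so these counts and medians are no test of the family against other genes. Traf1 was called higher in each of the 7 comparisons, Tnfrsf9 in 6 of them and Tnfrsf1a in none.

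**Figure D2:**
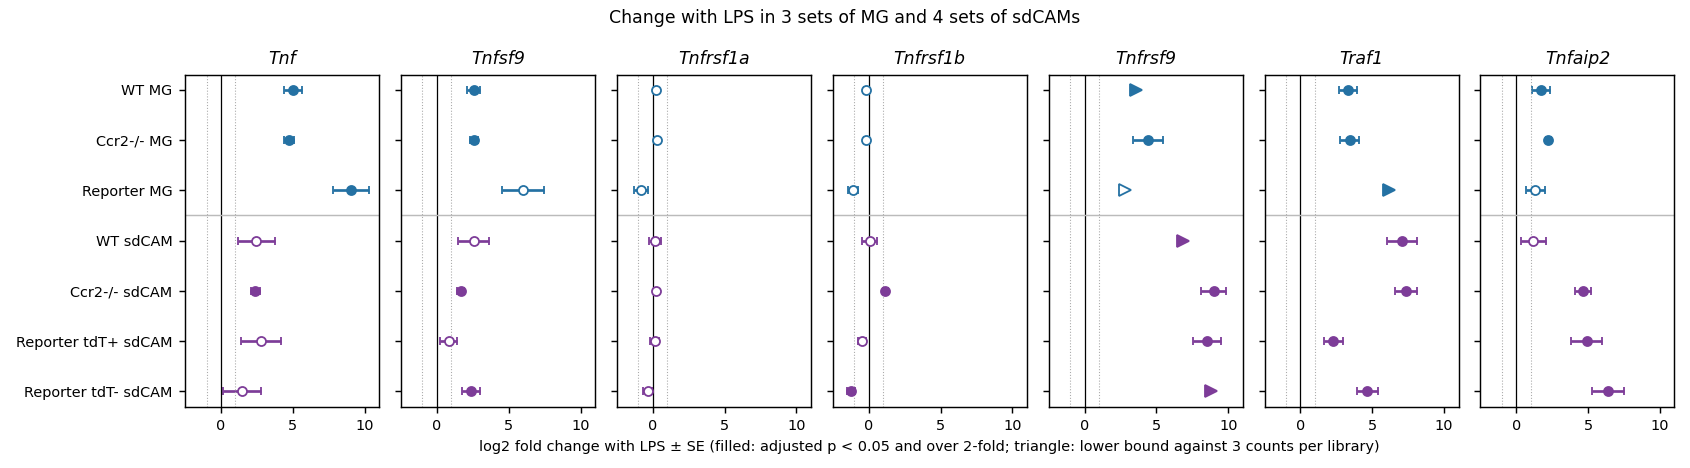
log2 fold change with LPS for each gene (1 panel per gene) in the 7 sets of cells, with MG in blue above the grey line and sdCAMs in purple below it. Circles carry standard errors, filled symbols are calls, and triangles are lower bounds for genes at 3 counts or fewer in each library without LPS. Traf1 is filled in all 7 sets, whereas Tnfrsf1a lies between -0.82 and 0.31 and is filled in none.

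Tnf, the cytokine itself, rose in MG of every set. In WT MG, the untreated libraries were at 2.44, 2.65 and 3.68 TMM CPM, and those of CTL with LPS at 140.3, 32.4 and 112. All 3 LPS libraries lay above all untreated ones, although mouse 4 was well below the other two, and the log2 fold change was 5.01 ± 0.63 (SE, adjusted p = 1.60e-04). In Ccr2-/- MG, Tnf was at 7.35, 2.40 and 4.61 TMM CPM without treatment and at 159, 121 and 94.6 after CTL with LPS, a log2 fold change of 4.73 ± 0.34 (adjusted p = 2.86e-07). The groups again did not overlap. Repopulated reporter MG held 0.665, 0 and 0 TMM CPM of Tnf after PBS and 114, 161 and 119.7 after LPS. The log2 fold change there was 9.02 ± 1.25 (adjusted p = 0.0296), against PBS libraries with 8, 0 and 0 counts, and 4 of the 6 fits that left out 1 library no longer called it, with adjusted p of 0.0975 without PBS mouse 177 and of 0.104, 0.178 and 0.157 without LPS mouse 1, 5 or 7.

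In sdCAMs, the change of Tnf was less even. Ccr2-/- sdCAMs were at 12.9, 11.2 and 9.05 TMM CPM without treatment and at 53.6, 64.1 and 56.2 after CTL with LPS. The 2 groups were tight and apart, with a log2 fold change of 2.39 ± 0.31 (adjusted p = 9.30e-05). In WT sdCAMs, Tnf was at 0, 41.4 and 0.876 TMM CPM without treatment and at 50.6, 68.7 and 97.97 after CTL with LPS. The groups did not overlap, but the log2 fold change of 2.46 ± 1.27 was not called (adjusted p = 0.256). In plain CPM, without TMM, the groups overlapped, at 30.2 ± 16.2 after CTL with LPS and 14.0 ± 23.3 without treatment. The high untreated library, of mouse 14, was also highest of its group for the summed level of 9 immediate early genes (1238 against 574 and 496 TMM CPM), genes that are induced within minutes of stimulation or cell handling. Without this library Tnf was called, with a log2 fold change of 7.44 (adjusted p = 0.0122). The untreated libraries left in that fit were at 0 and 0.876 TMM CPM, so the size of the change rests on levels near 0. The part of immediate early expression in the Tnf level was not tested.

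Among reporter sdCAMs, Tnf overlapped between LPS and PBS in both fractions. tdT+ sdCAMs held 1.51, 20.6 and 0 TMM CPM after PBS and 28.6, 108 and 16.3 after LPS (log2 fold change 2.79 ± 1.37, adjusted p = 0.197). The highest LPS value came from the library of mouse 5 with the high microglial markers. Without PBS mouse 175, the highest PBS library, the change was called with a log2 fold change of 6.04 (adjusted p = 0.0265), against PBS libraries at 1.51 and 0 TMM CPM. tdT- sdCAMs held 15.95, 7.98 and 1.78 TMM CPM after PBS and 5.14, 52.2 and 12.4 after LPS, with a log2 fold change of 1.44 ± 1.31 (adjusted p = 0.441).

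In the order of the 18 group means, Tnf was highest in the 5 MG groups with LPS, from 163 ± 37.4 TMM CPM in Ccr2-/- MG with BLZ945 and LPS to 80.6 ± 55.1 in WT MG with BLZ945 and LPS. The sdCAM groups with LPS followed at 72.4 ± 23.9 or lower. The lowest mean was that of reporter MG with PBS at 0.222 ± 0.384, and it was the only one whose libraries did not overlap with those of its neighbour in the order.

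Tnfsf9, the ligand of CD137, rose in WT and Ccr2-/- MG by similar amounts. Untreated WT MG were at 1.27, 1.93 and 2.34 TMM CPM, and CTL with LPS gave 15.8, 8.17 and 8.74. The groups were apart, and the log2 fold change was 2.55 ± 0.46 (adjusted p = 0.00172). In Ccr2-/- MG the levels were 2.19, 3.43 and 3.07 TMM CPM without treatment and 17.5, 16.8 and 18.4 after CTL with LPS. The SD of the LPS libraries was 0.824 TMM CPM, and the log2 fold change was 2.61 ± 0.28 (adjusted p = 1.02e-05). Reporter MG moved from 0 to 0.914 TMM CPM after PBS to 17.6 to 27.5 after LPS without overlap, a log2 fold change of 5.98 ± 1.46 that was not called (adjusted p = 0.103).

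Ccr2-/- sdCAMs had more Tnfsf9 at rest than MG of the same mice, at 14.1, 17.7 and 12.9 TMM CPM without treatment, and were at 54.6, 45.7 and 41.5 after CTL with LPS. This was a log2 fold change of 1.67 ± 0.24 (adjusted p = 2.28e-04), with no overlap. tdT- sdCAMs held 11.1, 11.43 and 10.2 TMM CPM after PBS and 50.5, 100.1 and 18.7 after LPS. The LPS libraries all lay above the PBS libraries but spread widely, and the log2 fold change of 2.37 ± 0.62 (adjusted p = 0.0102) lost its call without mouse 5 after LPS (1.64, adjusted p = 0.0701). WT sdCAMs held 0, 2.44 and 10.5 TMM CPM without treatment and 12.8, 27.96 and 27.3 after CTL with LPS, apart but not called (2.58 ± 1.08, adjusted p = 0.164). In plain CPM, without TMM, these groups overlapped, at 9.33 ± 4.59 after CTL with LPS and 4.95 ± 6.60 without treatment. The labels carry a mark on immediate early genes, which they do not explain, for 6 of the 9 WT sdCAM libraries, and whether their counts were changed is not given in the sources used here. All 3 libraries of CTL with LPS carry it, 2 of the 3 untreated ones (mice 9 and 14) and 1 of the 3 of BLZ945 with LPS, so that mark and group are partly confounded. Among the marked libraries alone Tnfsf9 was called with 4.24 (adjusted p = 0.0285). In tdT+ sdCAMs the groups overlapped (0.82 ± 0.60, adjusted p = 0.399).

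Tnfrsf1a, the widely expressed TNF receptor with a death domain, was not called in any comparison. Its group means lay between 193 ± 39.98 TMM CPM in tdT- sdCAMs after LPS and 409 ± 8.19 in Ccr2-/- sdCAMs after CTL with LPS, a narrow range beside that of the other genes. Consecutive groups in that order overlapped throughout.

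Tnfrsf1b, the receptor that binds TRAF adaptors, behaved differently between sets of sdCAMs. In Ccr2-/- sdCAMs it was at 423, 419 and 371 TMM CPM without treatment and at 1000.5, 926 and 789 after CTL with LPS. All LPS libraries were above all untreated ones, and the log2 fold change was 1.16 ± 0.16 (adjusted p = 1.22e-04). In tdT- sdCAMs, by contrast, the levels were 358, 439 and 442 TMM CPM after PBS and 157, 176 and 204 after LPS, and Tnfrsf1b fell, with a log2 fold change of -1.21 ± 0.28 (adjusted p = 0.00491). DESeq2 size factors moved the median of all genes in this comparison by 0.194, and with them the value for Tnfrsf1b was -1.02 (adjusted p = 0.0143). With the 2 conflicting columns exchanged, the log2 fold change was -0.68 and the call was lost (adjusted p = 0.290), since the exchange placed a library at 395 TMM CPM in the tdT- group. WT sdCAMs held 109.8, 207 and 231 TMM CPM without treatment and 218, 148 and 153 after CTL with LPS, so that the groups overlapped (log2 fold change 0.07 ± 0.51, adjusted p = 0.957). This overlap depended on the scaling, as the TMM factors were 0.344 to 0.494 in the LPS libraries and 0.842 to 1.18 in the untreated ones. In plain CPM, without TMM, the LPS libraries at 53.2 to 75.7 all lay below the untreated ones at 92.5 to 273. In MG the log2 fold change was -0.17 ± 0.14 (WT) and -0.18 ± 0.13 (Ccr2-/-), and neither was called. Reporter MG went from 454, 581 and 725 TMM CPM after PBS to 312, 216 and 322 after LPS. These groups did not overlap, but the log2 fold change of -1.09 ± 0.34 was not called (adjusted p = 0.186).

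Tnfrsf9 was near 0 without LPS and among the largest changes of the 7 genes in sdCAMs. WT sdCAMs had 0 counts in all 3 untreated libraries and 143, 149 and 144 TMM CPM after CTL with LPS. Against 3 counts per library, the mean was at least 118-fold higher (adjusted p = 0.00117). Ccr2-/- sdCAMs held 0, 0 and 2.60 TMM CPM without treatment and 388, 369.6 and 561 after CTL with LPS, a log2 fold change of 8.98 ± 0.85 (adjusted p = 6.74e-06). tdT- sdCAMs held 0, 0.0985 and 0 TMM CPM after PBS and 125, 139.7 and 128 after LPS, which was at least 438-fold higher (adjusted p = 6.60e-06). This bound also depends on the scaling, as the plain CPM mean after LPS was 78.4 ± 12.0. In tdT+ sdCAMs, 0.432, 0 and 0 TMM CPM after PBS stood against 88.3, 13.7 and 81.4 after LPS. The lowest LPS value was again that of mouse 5, and the log2 fold change was 8.54 ± 0.99 (adjusted p = 8.47e-05). With the 2 columns exchanged, the log2 fold changes of tdT+ and tdT- sdCAMs were 8.85 (adjusted p = 8.38e-04) and 11.13 (adjusted p = 3.61e-04).

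CD137 is known from T and NK cells, so their markers were read beside it. The table had 6 of the 7 listed T and NK cell markers (Cd3e, Cd3d, Cd3g, Cd8a, Ncr1 and Klrb1c), and their summed level was 0 to 10.1 TMM CPM in WT sdCAMs and 0 to 0.652 in Ccr2-/- sdCAMs after CTL with LPS. In the latter group Cd3d, Cd8a, Ncr1 and Klrb1c were at 0 in every library while Tnfrsf9 was at 369.6 to 561 TMM CPM. The summed T and NK cell level was highest in tdT+ sdCAMs after PBS, at 12.4 to 117 TMM CPM, where Tnfrsf9 was at 0.432 TMM CPM or lower. In tdT- sdCAMs after LPS the sum was 1.78 to 74.6, in tdT+ sdCAMs after LPS 0.308 to 11.44, and in Ccr2-/- sdCAMs with BLZ945 and LPS 0 to 15.5 TMM CPM. The part of T and NK cells in the Tnfrsf9 level was not tested.

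In the order of group means, the 6 sdCAM groups with LPS came first for Tnfrsf9 too, and the lowest of them, tdT+ sdCAMs at 61.1 ± 41.2 TMM CPM, did not overlap with Ccr2-/- MG with CTL and LPS at 5.08 ± 3.605.

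MG held far less Tnfrsf9. In Ccr2-/- MG it was at 0.596, 0.0857 and 0 TMM CPM without treatment and at 4.22, 1.98 and 9.03 after CTL with LPS. The groups were apart, with a log2 fold change of 4.43 ± 1.06 (adjusted p = 0.00487). In WT MG, 0, 0.204 and 0 TMM CPM stood against 9.61, 1.08 and 0, so that the groups overlapped. The mean was at least 11.97-fold higher (adjusted p = 0.04002), a call that rested on mouse 1 and was lost without it (log2 fold change 2.82, adjusted p = 0.267) and without any of the 3 untreated libraries (adjusted p of 0.122, 0.0810 and 0.128 without mouse 9, 14 or 15). Reporter MG had 0 counts in all 3 PBS libraries and 0.881 to 2.91 TMM CPM after LPS, at least 7.07-fold higher but not called (adjusted p = 0.119).

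Traf1, the adaptor downstream of both TNFR2 and CD137, rose in every set. WT sdCAMs were at 0, 0 and 2.19 TMM CPM without treatment and at 117, 41.9 and 110.3 after CTL with LPS. The log2 fold change was 7.08 ± 1.04 (adjusted p = 0.00565). Ccr2-/- sdCAMs went from 0, 0 and 2.60 to 120.0, 154 and 149 TMM CPM, a log2 fold change of 7.34 ± 0.78 (adjusted p = 1.75e-05). No library overlapped between the groups in either genotype. WT MG changed from 0.531, 0.305 and 0.539 to 7.87, 2.87 and 3.17 TMM CPM (log2 fold change 3.31 ± 0.64, adjusted p = 0.00247). In Ccr2-/- MG the levels were 0.397, 0.0857 and 0.549 TMM CPM without treatment and 4.60, 2.32 and 3.91 after CTL with LPS (3.42 ± 0.66, adjusted p = 0.00108). MG after CTL with LPS thus stayed below 10 TMM CPM in both genotypes. Repopulated reporter MG reached 14.9, 21.0 and 25.7 TMM CPM after LPS from 0 counts in all 3 PBS libraries, at least 71.9-fold higher (adjusted p = 0.0418). This call was lost without any of the 3 LPS libraries (adjusted p of 0.121, 0.297 and 0.281 without mouse 1, 5 or 7) and without PBS mouse 174 or 177 (adjusted p = 0.107 in each).

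Reporter sdCAMs differed from the other sdCAMs in that Traf1 was detected in every PBS library. Batch label, genotype, tamoxifen and BLZ945 differed along with this and cannot be told apart. tdT+ sdCAMs held 12.9, 3.38 and 14.7 TMM CPM after PBS and 41.7, 26.2 and 84.2 after LPS, without overlap. The log2 fold change of 2.29 ± 0.66 (adjusted p = 0.0306) was lost without LPS mouse 1 or 7 or PBS mouse 174 or 175 (adjusted p of 0.0551, 0.154, 0.0657 and 0.0982). tdT- sdCAMs held 13.6, 2.07 and 6.06 TMM CPM after PBS and 140.1, 159 and 249 after LPS, a log2 fold change of 4.64 ± 0.72 (adjusted p = 2.33e-04). All 3 LPS libraries lay far above the PBS libraries, and each leave-out kept the call. Dendritic cell markers (Flt3, Zbtb46, Xcr1 and Ccr7) were read beside this, and their summed level was 48.99 to 71.3 TMM CPM after PBS and 162 to 196 after LPS in tdT- sdCAMs, and 0 to 19.6 and 25.4 to 108 in tdT+ sdCAMs. The gap between fractions after LPS holds only with columns as named. Exchanging the 2 conflicting columns places a library of 162 or more in tdT+ and a library of 108 or less in tdT- sdCAMs, so that the fractions overlap. Most of the sum after LPS was Ccr7, and Xcr1 was at 0 after LPS in both fractions. In Ccr2-/- sdCAMs, where Traf1 and Tnfrsf9 also rose, the sum was 32.4 to 37.7 TMM CPM without treatment and 9.05 to 14.9 after CTL with LPS. The part of dendritic cells in the Traf1 and Tnfrsf9 levels of reporter sdCAMs was not tested. Over the 18 groups, Traf1 means ran from 183 ± 58.2 TMM CPM in tdT- sdCAMs with LPS to 0 in reporter MG with PBS. The 6 sdCAM groups with LPS came first, and the lowest of them, WT sdCAMs with BLZ945 and LPS at 47.8 ± 17.9, did not overlap with the next, reporter MG with LPS.

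Tnfaip2, named for its induction by TNF, had its highest levels in tdT- sdCAMs after LPS, at 1008, 168 and 1209.7 TMM CPM against 11.8, 7.98 and 8.77 after PBS. The LPS libraries were all above the PBS libraries, with mouse 5 far below the others, and the log2 fold change was 6.37 ± 1.13 (adjusted p = 6.16e-04). tdT+ sdCAMs held 10.2, 0 and 7.52 TMM CPM after PBS and 369, 75.7 and 83.9 after LPS (4.89 ± 1.06, adjusted p = 0.00679). With the 2 conflicting columns exchanged, the means after LPS were nearly the same, at 487 ± 627 TMM CPM in tdT- and 484 ± 477 in tdT+ sdCAMs. Ccr2-/- sdCAMs went from 7.95, 0.814 and 3.05 TMM CPM to 105, 114 and 76.8, a log2 fold change of 4.63 ± 0.55 (adjusted p = 4.86e-05). In these 3 sets the groups did not overlap. WT sdCAMs stood out at rest, with 215, 224 and 31.1 TMM CPM without treatment, and after CTL with LPS they were at 681, 76.9 and 244. These groups overlapped and were not called (1.19 ± 0.86, adjusted p = 0.421). In plain CPM, without TMM, the order of the means was the other way, at 128 ± 103 after CTL with LPS and 146 ± 96.7 without treatment.

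In the libraries with the most Tnfaip2, neutrophil markers were also read. The summed level of 6 such markers was 3290 TMM CPM in the WT sdCAM library of mouse 1 after CTL with LPS, against 359 and 638 in the others, and 571 to 2234 in tdT- sdCAMs against 8.31 to 47.4 in tdT+ sdCAMs after LPS. Ly6g, Retnlg and Ngp were at 0 in both the WT sdCAMs with CTL and LPS and the tdT- sdCAMs with LPS, and most of the sum was S100a8, which macrophages can also express. With the 2 conflicting columns exchanged, the sums were 28.98 to 1067 in tdT- and 8.31 to 2234 in tdT+ sdCAMs, and the fractions overlapped. The part of these transcripts in the Tnfaip2 level was not tested.

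Ccr2-/- MG held 19.1, 22.9 and 20.7 TMM CPM of Tnfaip2 without treatment and 125, 80.0 and 84.9 after CTL with LPS. The log2 fold change was 2.23 ± 0.19 (adjusted p = 1.31e-06) with no overlap. In WT MG, 28.9, 17.2 and 28.3 stood against 159, 24.2 and 59.95 TMM CPM, which overlapped. The log2 fold change of 1.71 ± 0.60 (adjusted p = 0.0477) was 0.78 without LPS mouse 1 (adjusted p = 0.262) and also lost its call without LPS mouse 6 (adjusted p = 0.0681) and without any untreated library (adjusted p of 0.0990, 0.151 and 0.103 without mouse 9, 14 or 15). Reporter MG were at 17.6 to 73.6 TMM CPM after PBS and 67.9 to 159 after LPS and were not called (1.32 ± 0.66, adjusted p = 0.451).

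Untreated sdCAMs and MG of the same mice were compared next. In WT mice 2 of the 7 genes were called, against 17.1% of all genes tested. Tnfrsf1b was lower in sdCAMs, at 183 ± 64.1 against 540 ± 32.0 TMM CPM in MG, a log2 difference of -1.56 ± 0.37 (adjusted p = 0.00876). Tnfaip2 was higher in sdCAMs by 2.703 ± 0.85 on the log2 scale (adjusted p = 0.0355). This call was lost when any of 5 of the 6 libraries was left out, with adjusted p of 0.104 and 0.101 without sdCAMs of mouse 9 or 14 and of 0.0985, 0.133 and 0.103 without MG of mouse 9, 14 or 15. In Ccr2-/- mice 3 were called, against 15% of all genes. Tnfsf9 was higher in sdCAMs by 2.35 ± 0.25 (adjusted p = 8.05e-07), and Tnf by 1.21 ± 0.35 (adjusted p = 0.0170). The call of Tnf was lost without sdCAMs of mouse 1m (adjusted p = 0.0595) or MG of mouse 3m or 5f (adjusted p of 0.0934 and 0.0566). Tnfaip2 went the other way than in WT mice, at 3.94 ± 3.65 TMM CPM in sdCAMs against 20.9 ± 1.90 in MG, a log2 difference of -2.39 ± 0.43 (adjusted p = 3.44e-04). Tnfrsf1b was lower in Ccr2-/- sdCAMs, with a log2 difference of -0.45 ± 0.14 (adjusted p = 0.0245), below the limit on fold change. These differences were not tested between genotypes. Summed microglial markers were 4032 to 6761 TMM CPM in untreated WT sdCAMs and 1894 to 2860 in untreated Ccr2-/- sdCAMs, and their part in these values was not tested.

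Whether the LPS change differed between cell types was tested as an interaction, the change in sdCAMs minus the change in MG. In Ccr2-/- mice 3 of the 7 genes were called, against 6.88% of all genes tested. Tnf changed less in sdCAMs, with a difference of log2 fold changes of -2.31 ± 0.47 (adjusted p = 0.00355). Tnfrsf1b changed more, by 1.37 ± 0.20 (adjusted p = 1.52e-04), as did Tnfaip2, by 2.42 ± 0.56 (adjusted p = 0.00965). Each of the 3 kept its call without any single library of the 12 compared. Traf1 differed by 3.94 ± 1.37 (adjusted p = 0.0914). With the mouse as a block the difference was 4.44 (adjusted p = 0.0417), and without untreated sdCAMs of mouse 5f, the only untreated sdCAM library with Traf1 counts, it was 10.01 (adjusted p = 3.47e-04). Tnfrsf9 differed by 4.59 ± 2.28 (adjusted p = 0.265) and Tnfsf9 by -0.92 ± 0.33 (adjusted p = 0.104).

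In WT mice no gene of the 7 was called by edgeR for this interaction, where 1.32% of all genes were called. At an unadjusted p under 0.05, 1 of the 7 passed, and DESeq2 called 1 of the 7 beside 853 of all genes. The gene was Traf1 in both cases. Its difference was 3.76 ± 1.22 (adjusted p = 0.122), or 3.90 by DESeq2 (adjusted p = 0.0196). Without untreated sdCAMs of mouse 15, the only untreated WT sdCAM library with Traf1 counts, edgeR gave 9.00 (adjusted p = 0.0340). Tnf differed by -2.64 ± 1.41 (adjusted p = 0.335). WT sdCAM libraries were shallower and more variable than Ccr2-/- ones, with a common biological coefficient of variation of 0.700 in WT sdCAMs, 0.453 in Ccr2-/- sdCAMs, 0.257 in WT MG and 0.264 in Ccr2-/- MG.

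**Figure D3:**
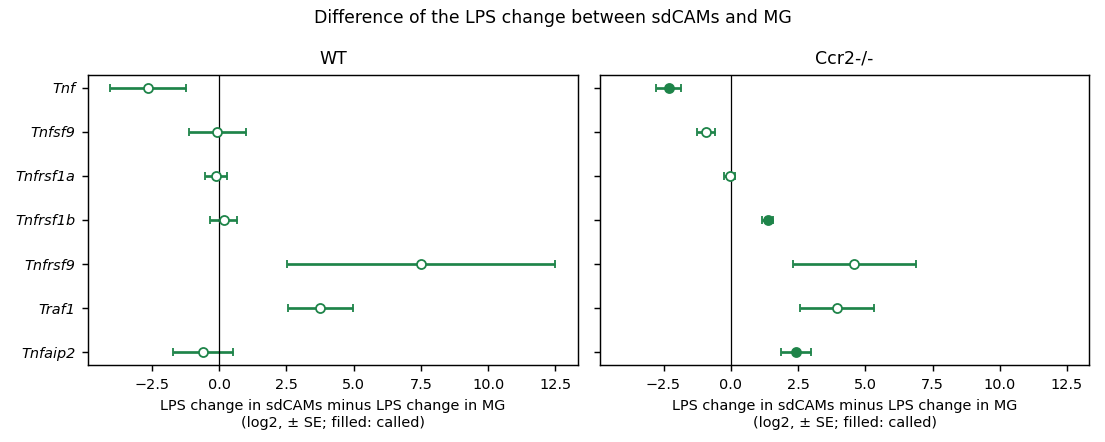
Difference between the LPS change in sdCAMs and that in MG, as log2 fold change in sdCAMs minus log2 fold change in MG, for WT mice (left) and Ccr2-/- mice (right). Points are fitted values with standard errors and filled points are calls. Tnf lies left of 0 in both panels, at -2.64 and -2.31, but only the Ccr2-/- values of Tnf, Tnfrsf1b and Tnfaip2 are filled.

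The LPS change of the 7 genes was not shown to differ between genotypes. In MG, edgeR called 0 of the 7 genes and 0% of all genes for the genotype by LPS interaction. No member had an unadjusted p under 0.05, and DESeq2 called 0 of the 7 and 1 of all genes. In sdCAMs, edgeR again called 0 of the 7 and 0% of all genes, while Tnfaip2 and Tnfrsf1b had an unadjusted p under 0.05. DESeq2 called 0 of the 7 there, but 242 of all genes. The Tnfaip2 change was larger in Ccr2-/- sdCAMs by 3.64 ± 1.09 on the log2 scale (adjusted p = 0.218), and that of Tnfrsf1b by 1.29 ± 0.52 (adjusted p = 0.291). Both values set a table of WT against a table of Ccr2-/- libraries, both of which carry the same batch label.

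Repopulated and never depleted cells were compared after LPS, as BLZ945 minus CTL. None of the 7 genes was called by edgeR in any of the 4 sets, against 0.0763% of all genes in WT MG, 0% in WT sdCAMs, 0.0173% in Ccr2-/- MG and 0% in Ccr2-/- sdCAMs. DESeq2 called none of the 7 either, but 49, 11, 27 and 63 of all genes in these sets, in the same order. At an unadjusted p under 0.05 stood only Traf1 in Ccr2-/- MG and Tnfrsf1b in Ccr2-/- sdCAMs. Traf1 was at 15.2, 8.73 and 5.91 TMM CPM after BLZ945 and at 4.60, 2.32 and 3.91 after CTL in Ccr2-/- MG (log2 difference 1.45 ± 0.53, adjusted p = 0.686). Tnfrsf1b was at 597, 687 and 519.9 after BLZ945 and at 1000.5, 926 and 789 TMM CPM after CTL in Ccr2-/- sdCAMs (-0.61 ± 0.15, adjusted p = 0.332). In both pairs the libraries of the groups did not overlap. Tnfrsf9 in WT sdCAMs was at 119.7, 55.2 and 55.8 TMM CPM after BLZ945, all below the 143 to 149 after CTL (-0.99 ± 0.46, adjusted p = 0.697). In plain CPM the order of the means was the other way, at 78.5 ± 62.4 after BLZ945 and 58.01 ± 11.5 after CTL, and the groups overlapped. Tnf in WT MG was at 142, 62.6 and 36.8 TMM CPM after BLZ945, a range that spanned the CTL libraries almost entirely (-0.22 ± 0.50, adjusted p = 0.979).

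The lineage of repopulated sdCAMs was examined by setting tdT+ against tdT- sdCAMs of the same mice. After PBS, edgeR called 0 of the 7 genes, against 0.0236% of all genes. No member had an unadjusted p under 0.05, and DESeq2 called 0 of the 7 and 83 of all genes. After LPS, edgeR called 0 of the 7, against 10.6% of all genes. At an unadjusted p under 0.05 were Tnfaip2, Tnfrsf1b and Traf1. DESeq2 called 1 of the 7, which was Traf1, and 1910 of all genes. In each of the 3 mice Traf1 was lower in the tdT+ than in the tdT- library, with a log2 difference of -1.85 ± 0.64 (adjusted p = 0.0811). With the mouse as a block it was -1.97 and was called (adjusted p = 0.00717). Tnfrsf1b was higher in each tdT+ library by 0.81 ± 0.28 on the log2 scale (adjusted p = 0.0803), and Tnfaip2 was lower in each, with a log2 difference of -2.18 ± 0.93 (adjusted p = 0.159).

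These lineage values rest on the 2 columns in conflict. They also rest on the tdT+ library of mouse 5, where microglial markers summed to 3969 TMM CPM. As named, the pairs of mice 1 and 7 join libraries whose transcripts of sex chromosomes differ. With the columns exchanged, the log2 difference after LPS was -1.24 for Traf1 (adjusted p = 0.850), -0.14 for Tnfrsf1b (adjusted p = 0.995) and -0.01 for Tnfaip2 (adjusted p = 1), and with the exchange and the block together Traf1 was at -1.47 (adjusted p = 0.981). Exchanged levels of Tnfaip2 were 484 ± 477 TMM CPM in tdT+ and 487 ± 627 in tdT- sdCAMs, in place of 176 ± 167 and 795 ± 553. For Tnfrsf1b the exchange gave 235 ± 72.8 in tdT+ and 258 ± 119 in tdT- sdCAMs, in place of 314 ± 75.3 and 179 ± 23.7.

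**Figure D4:**
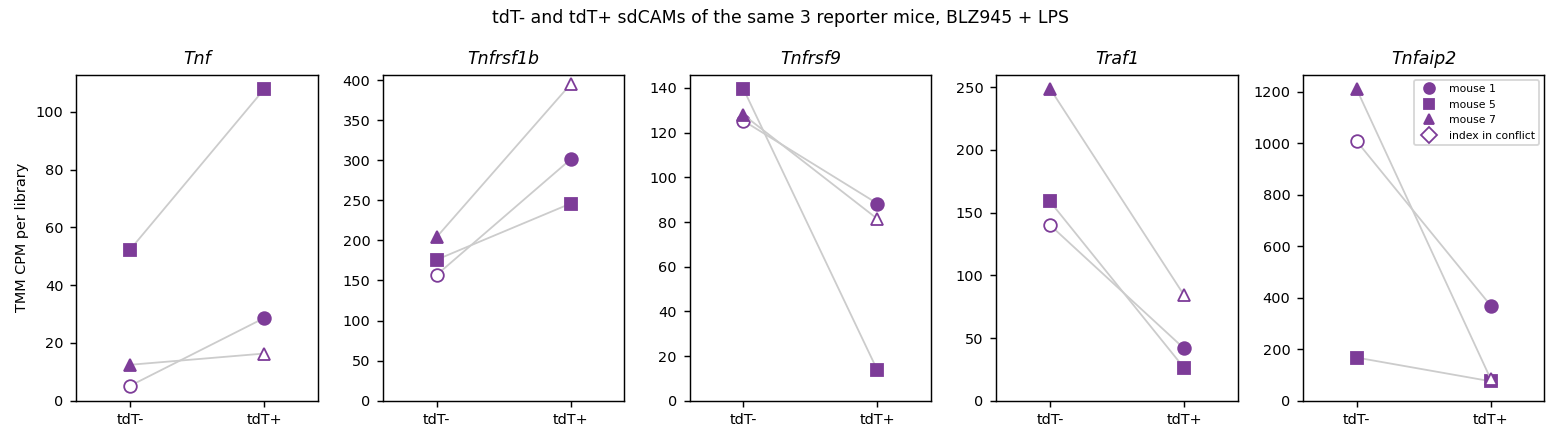
TMM CPM of 5 genes in tdT- and tdT+ sdCAMs of the 3 reporter mice given BLZ945 and LPS, on linear axes that start at 0, with lines joining libraries of 1 mouse. Open symbols are the 2 libraries whose index number conflicts with the labels. The tdT+ library of mouse 5 is the one with high microglial markers. Tnf and Tnfrsf1b rise from tdT- to tdT+ in all 3 mice and Tnfrsf9, Traf1 and Tnfaip2 fall, with the columns as named.

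Other genes of the pathway were read from lists grouped by role, which were also chosen with earlier results of these data known. Over the 7 LPS comparisons, 0.662% to 14.5% of all genes were called higher and 0.423% to 12% lower. Of 16 other TNF superfamily ligands, 9 passed the filter on low counts in at least 1 LPS comparison, and at most 1 was called in either direction in any of the 7. Ltb, which encodes a subunit of lymphotoxin, fell, with log2 fold changes of -4.81 ± 0.87 in WT MG (adjusted p = 0.00172) and -4.25 ± 1.21 in Ccr2-/- MG (adjusted p = 0.0142). Tnfsf14 (LIGHT) rose in Ccr2-/- sdCAMs by 7.66 ± 1.58 (adjusted p = 0.00421), and Tnfsf12 (TWEAK) fell there, with -1.33 ± 0.32 (adjusted p = 0.00825).

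Of 25 other receptors, 20 were tested in at least 1 LPS comparison, with 0 to 5 called higher and 0 to 4 called lower per comparison. In Ccr2-/- sdCAMs 5 of 14 tested were called higher and 3 lower, beside 10.9% and 10.6% of all genes, and in tdT- sdCAMs 4 of 19 each way, beside 14.5% and 12%. Fas, a death receptor, rose in 5 of the 7 comparisons, with log2 fold changes of 4.75 ± 0.60 in WT sdCAMs (adjusted p = 0.00247) and 3.70 ± 0.35 in Ccr2-/- sdCAMs (adjusted p = 6.87e-06). Cd40, the costimulatory receptor, rose in 4, with 4.87 ± 0.70 in Ccr2-/- MG (adjusted p = 1.08e-04). Tnfrsf13b (TACI) fell in 5 of the 7, with -1.34 ± 0.23 in Ccr2-/- MG (adjusted p = 5.39e-04), and Tnfrsf17 (BCMA) fell in 4, with a log2 fold change of -9.39 ± 0.65 in Ccr2-/- MG (adjusted p = 1.85e-07). Tnfrsf17 was there at 26.5 ± 5.13 TMM CPM without treatment and 0.0256 ± 0.0443 after CTL with LPS. The size of its fall thus rests on a level near 0. TACI and BCMA are receptors best known from B cells.

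Of 28 adaptors, kinases and death effectors of TNF receptor signalling, all were tested, with 0 to 7 called higher and 0 to 1 lower per comparison and list medians of 0.04 to 0.55 beside -0.08 to 0.04 over all genes. In Ccr2-/- sdCAMs 7 of 28 were called higher beside 10.9% of all genes. In tdT- sdCAMs 4 of 28 were called higher beside 14.5%. Map3k8 (TPL2), a kinase needed for TNF production after LPS, rose in 6 of the 7 comparisons, with a log2 fold change of 3.04 ± 0.24 in WT MG (adjusted p = 4.65e-06), and in reporter MG it was 2.33 ± 0.53 (adjusted p = 0.0907). Birc3 (cIAP2), a ubiquitin ligase bound by TRAF proteins, rose in 4, with 2.31 ± 0.20 in Ccr2-/- sdCAMs (adjusted p = 3.02e-06). Ripk3 and Mlkl, which carry out necroptosis, each rose in 3, with 3.55 ± 0.75 (adjusted p = 0.00335) and 4.62 ± 0.73 (adjusted p = 4.29e-04) in Ccr2-/- sdCAMs.

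Of 9 listed inhibitors of the pathway, 1 to 5 were called higher and 0 to 1 lower per comparison. In Ccr2-/- sdCAMs 5 of 9 were called higher beside 10.9% of all genes, and in WT sdCAMs 1 of 9 beside 3.7%. Nfkbia, which encodes the NF-kappaB inhibitor IkappaB-alpha, rose in all 7 comparisons, by log2 fold changes from 1.97 ± 0.44 in tdT+ sdCAMs (adjusted p = 0.00790) to 3.94 ± 0.69 in WT sdCAMs (adjusted p = 0.0116). Tnfaip3 (A20), a ubiquitin-editing enzyme, rose in 5, with 4.39 ± 0.21 in Ccr2-/- sdCAMs (adjusted p = 2.99e-08). Tnfaip8l2 (TIPE2) fell in 3, all of them sdCAM sets, with -1.41 ± 0.17 in Ccr2-/- sdCAMs (adjusted p = 6.24e-05). Tnip3 rose in Ccr2-/- MG and Ccr2-/- sdCAMs, by 4.78 ± 1.20 (adjusted p = 0.00691) and 8.41 ± 0.71 (adjusted p = 2.60e-06). Its untreated levels were 0.0697 ± 0.0606 and 0.0388 ± 0.0671 TMM CPM, against 2.10 ± 2.18 and 17.3 ± 4.47 after CTL with LPS. The sizes of both rises thus rest on levels near 0.

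Among 9 genes that control Tnf mRNA or the release of TNF, 0 to 3 were called higher and 0 to 2 lower per comparison. In Ccr2-/- sdCAMs 3 of 9 were called higher beside 10.9% of all genes, and in tdT- sdCAMs 1 of 9 beside 14.5%. Zc3h12a (regnase-1), an RNase that degrades cytokine mRNA, rose in 5, by 2.65 ± 0.39 in Ccr2-/- sdCAMs (adjusted p = 2.43e-04). Zfp36l2, which binds AU-rich elements, fell in 3 sdCAM sets, with log2 fold changes of -2.63 ± 0.58 in WT sdCAMs (adjusted p = 0.02498), -1.83 ± 0.25 in Ccr2-/- sdCAMs (adjusted p = 1.26e-04) and -2.55 ± 0.33 in tdT- sdCAMs (adjusted p = 4.53e-05). In MG its log2 fold changes were 0.68 ± 0.23 (WT) and 0.66 ± 0.16 (Ccr2-/-), below the limit on fold change. Rhbdf2 (iRhom2), which brings the TNF-cleaving enzyme ADAM17 to the cell surface, rose in 3, by 2.00 ± 0.21 in Ccr2-/- sdCAMs (adjusted p = 1.50e-05). Elavl1 (HuR), an mRNA-stabilizing protein, fell in tdT- sdCAMs, with -1.85 ± 0.34 (adjusted p = 8.91e-04). Of 4 other genes named for induction by TNF, 0 were called in any of the 7 comparisons by edgeR.

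**Figure D5:**
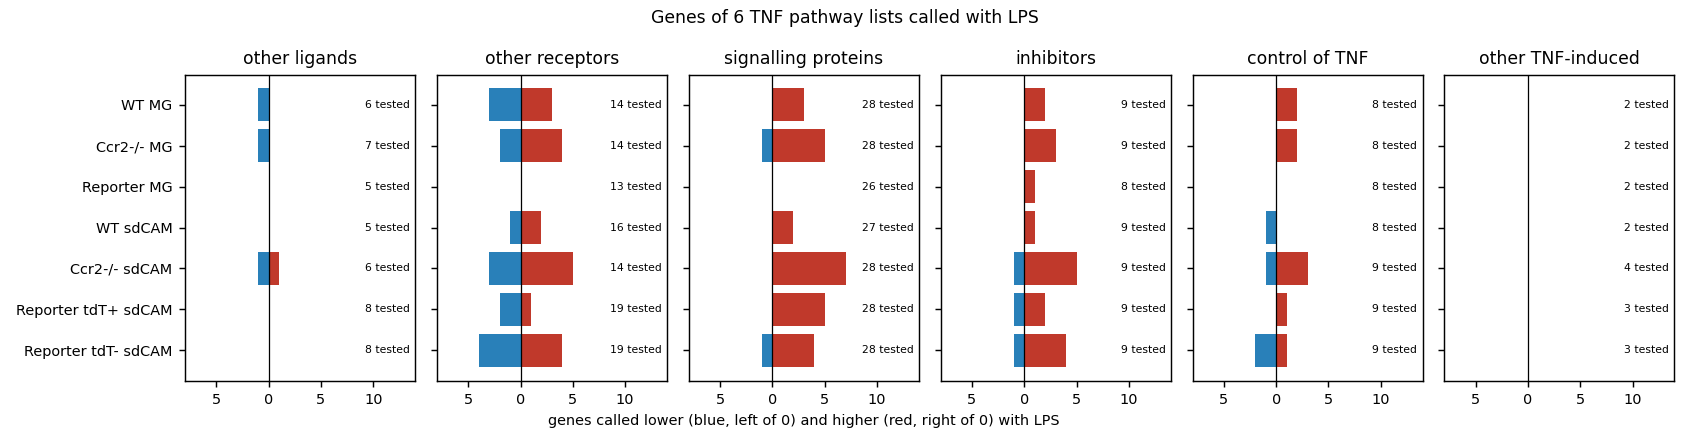
Number of genes called lower (blue, left of 0) and higher (red, right of 0) with LPS in the 6 pathway lists, with 1 panel per list and 1 bar line per set of cells; the number of genes tested stands at the right of each line. The widest red bar is that of the 28 signalling genes in Ccr2-/- sdCAMs, at 7, where 10.9% of all genes were called higher. The list of other TNF-induced genes has no bar.

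Patterns across the 18 group means were described with Pearson's r of log2(TMM CPM + 1) over 8627 genes with a mean of at least 10 TMM CPM. The 18 means share mice, libraries and conditions, so r is a description. Within the 7 genes, Tnfrsf9 and Traf1 (r = 0.898) and Tnfsf9 and Traf1 (r = 0.882) were most alike. Tnf was most like Ier3 (r = 0.950), Spp1 (r = 0.945) and Pdss1 (r = 0.944), and its r with Traf1 was 0.550. Tnfrsf9 was most like Nus1 (r = 0.973), Ifi205 (r = 0.970) and Sphk1 (r = 0.967), and Traf1 most like Prss16 (r = 0.962), Clec4e (r = 0.958) and Ggnbp2 (r = 0.958). Tnfsf9 stood nearest to Spryd7 (r = 0.937), Pilrb2 (r = 0.936) and Ms4a4c (r = 0.929), and Tnfaip2 nearest to Samsn1 (r = 0.944), Kdm6b (r = 0.935) and Pinx1 (r = 0.929). For Tnfrsf1b the nearest were Tbc1d10b (r = 0.935), Tada2b (r = 0.927) and Poldip3 (r = 0.904), and for Tnfrsf1a, whose means varied least, Vrk3 (r = 0.866), Mlf2 (r = 0.866) and Get3 (r = 0.847).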

How the data were processed

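Bulk RNA-seq of sorted MG and sdCAMs was analysed from the 3 deposited tables of read counts per gene, 1 each for WT, Ccr2-/- and reporter mice. Per the submitters' processing notes, the authors used bcl2fastq 2.20, STAR 2.7.11a, featureCounts 2.0.8 and DESeq2 1.46.0, and the deposited counts are whole numbers without normalization. The strand setting and the exact genome build were not given in the sources used here. The tables list the same 33280 symbols, 6948 of them without a read anywhere, and 0 columns remained without a mapped sample. Groups followed the sample characteristics, and column names gave the mouse.

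Genes were tested with edgeR 4.0.16 (limma 3.58.1, R 4.3.3): filterByExpr, TMM scaling, quasi-likelihood fits with 1 coefficient per group, and p-values adjusted by Benjamini and Hochberg across every tested gene. Standard errors are the size of the log2 fold change divided by the square root of the F statistic. WT and Ccr2-/- comparisons within a cell type used 1 fit per genotype and cell type over its 3 groups, reporter MG and reporter sdCAMs had 1 fit each, and comparisons of cell types and interactions used joint fits. Genes were called at an adjusted p below 0.05 if they also changed by more than 1 on the log2 scale. Against groups with at most 3 counts in each library, a fold is a lower bound computed at 3 counts per library. Levels used TMM factors over all 54 libraries. The code was tested on simulated counts. DESeq2 1.42.0 was run as an alternative, beside other scalings, filters and sets of libraries, the mouse as a block, and each library left out in turn.

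Cell types of a mouse came from the same animal, so that mice pair the libraries. Deviations from group means correlated between paired libraries at r = 0.00074 to 0.202 in WT mice (9 pairs), -0.127 to 0.330 in Ccr2-/- mice (9 pairs) and 0.0779 to 0.211 between tdT+ and tdT- sdCAMs (6 pairs).

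The 7 genes, the pathway lists and the marker lists were chosen with earlier results of these data known. In each pathway list, up to 4 genes were named, those called in most of the 7 LPS comparisons, with ties decided by mean size of change. Total counts of 1705930 to 11330781 per library set the precision. RefSeq promoter windows and GENCODE gene models on GRCm38 supplied positions and sequences. Some genes fixed for the cell type checks are not reported here and were left out of the marker sums.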

Additional observations from a re-analysis of the deposited data

Results flagged for a closer look

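In Ccr2-/- mice, the LPS change of 3 genes differed between sdCAMs and MG by the test of the interaction itself. For Tnf the log2 fold change was smaller in sdCAMs than in MG by a difference of -2.31 (adjusted p = 0.00355, edgeR), with a rise in all 3 LPS libraries of both cell types over every untreated library. For Tnfrsf1b the difference was 1.37 (adjusted p = 1.52e-04), with all 3 LPS libraries above the untreated ones in sdCAMs and overlapping groups in MG. For Tnfaip2 the difference was 2.42 (adjusted p = 0.00965), with no overlap between LPS and untreated libraries in either cell type.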

How the results depend on the processing

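Of the 36 calls of the 7 genes, the alternatives run gave 461 values, of which 428 kept the call, 33 lost it and 0 reversed. Of 1365 values for results not called, 26 became calls. Without a filter on low counts, 2 members were called for tdT+ minus tdT- after LPS, 2 for the cell type by LPS interaction in WT mice, 5 for that in Ccr2-/- mice and 1 for the genotype by LPS interaction in sdCAMs, in place of 0, 0, 3 and 0. DESeq2 called 1 in each of the first 2 of these, 4 in place of 3 for the Ccr2-/- interaction, 4 in place of 5 for LPS in WT MG and 3 in place of 2 for LPS in reporter MG. Of 126 group levels, 29 moved by more than 1 SD with plain CPM in place of TMM CPM. With the mouse as a replicate block, 1 member was called for tdT+ minus tdT- after LPS and 4 in place of 3 for the Ccr2-/- interaction, Traf1 in both, and the block changed no other call. The causes were not tested.

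Leaving out 1 library at a time gave 3 to 5 members for the LPS effect in WT MG, 2 to 3 in WT sdCAMs, 0 to 3 in reporter MG, 2 to 3 in tdT+ sdCAMs and 4 to 5 in tdT- sdCAMs. It gave 1 to 3 for untreated sdCAMs against MG in WT mice, 2 to 3 in Ccr2-/- mice, 0 to 1 for the WT interaction and 3 to 4 for the Ccr2-/- interaction. The LPS effects of Ccr2-/- mice stayed at 5 in MG and 6 in sdCAMs, and the BLZ945, genotype and tdT comparisons at 0. DESeq2 size factors shifted the median of all genes by over 0.1 in 5 comparisons, at most by 0.194 in tdT- sdCAMs, and reversed no called direction. Counts near 0 without LPS limit Tnfrsf9 and Traf1 to bounds or wide errors. Common coefficients of variation were 0.700 in WT sdCAMs and 0.713 and 0.810 in reporter sdCAMs and MG, against 0.257 to 0.453 in the other 3 sets.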
